A study of Mus musculus with 8 samples.

Results

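The 55 genes described here encode the machinery of DNA replication and of mitosis, and they were taken as a fixed list of gene symbols from the 23284 gene symbols in the expression tables. The list was sorted into 7 roles, namely origin licensing and helicase genes (13), polymerase, clamp and ligation genes (8), nucleotide supply genes (4), cyclins and their kinases (7), transcription factors (4), mitotic kinases, checkpoint and anaphase-promoting complex genes (10), and spindle, kinetochore and chromosome genes (9). The first 3 roles (25 genes) are called S phase genes below and the last 2 (19 genes) mitosis genes. Every one of the 55 genes had a single row and a successful expression estimate in each of the 8 libraries.

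RNA sequencing was performed on naive CD4 T cells and on effector Th1, Th2 and Th17 cells of the mouse, with 2 libraries per group. All cells carried the DO11.10 transgene, a T cell receptor that recognises an ovalbumin peptide. Naive cells were CD44low CD62Lhi CD4 T cells sorted from the spleen and were not cultured, so culture and effector differentiation cannot be told apart in any comparison with them. Effector cells were cultured for 6 days with irradiated splenocytes depleted of T cells and with the peptide. For Th1 cells 100 U/ml of IL-12, 30 U/ml of IL-2 and 1 µg/ml of an antibody to IL-4 were added. For Th2 cells the additions were 100 U/ml of IL-4, 30 U/ml of IL-2 and 10 µg/ml of an antibody to IFNγ. In Th17 cultures IL-6, IL-1β and IL-23 were each at 10 ng/ml, both antibodies were at 10 µg/ml, and the labels name no IL-2. Whether the 2 libraries of a group came from separate animals or cultures is not stated, so the p-values measure the spread between these libraries, which may be technical.

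A resting T cell sits outside the cell cycle. After antigen and costimulation, cyclin E with its kinase and the E2F transcription factors switch on the genes of S phase. The MCM helicase is loaded at origins before S phase begins, is activated there in S phase with CDC45 and GINS, and is followed by polymerases held on the DNA by the PCNA clamp. Genes of G2 and mitosis rise later, under B-MYB, FOXM1 and the release of the DREAM repressor complex, which acts at promoters through an element called CHR (cell cycle genes homology region) often paired with CCAAT boxes bound by NF-Y. In bulk RNA, fewer cycling cells and less of each RNA per cycling cell cannot be told apart.

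Promoters of the list were searched for letters that these factors are known to read, in windows from 250 bases before to 50 bases after the annotated start (RefSeq, GRCm38.p6). RefSeq windows were found for 46 of the 55 genes, with 52 windows in all because some genes have more than 1 start. An E2F word was any of TTTCCCGC, TTTCGCGC, TTTGCCGC and TTTGGCGC, a CHR word was TTTGAA or TTTAAA, and the third word was CCAAT, each on either strand and with overlapping matches counted. E2F words were in 11 of 25 windows of S phase genes (44.0%), in 0 of 18 windows of mitosis genes, and in 2.3% of all 32851 windows of the genome. CHR words were in 16 of the 18 mitosis windows (88.9%), in 24.0% of the S phase windows and in 27.6% of all windows. Both a CHR word and CCAAT were in 77.8% of mitosis windows, 16.0% of S phase windows and 10.7% of all windows. A match of letters is a description and not a binding site, and a window without a match says nothing of the factor.

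The stretches from 150 bases before the start to 30 bases from it are shown for 5 genes to which the results return, read 5′ to 3′ on the strand of the gene, with matched words in capitals. Mcm6 (chr1:128359676-128359855, minus strand) had the most E2F words, 3 of them, of which 2 overlap in the first run of capitals. Rfc3 (chr5:151651179-151651358, minus strand) is the gene that differed most between effector subsets, and it has 1 E2F word just before the start and 1 that begins at it. Cdk1 (chr10:69352883-69353062, minus strand) holds all 3 kinds of word. Ube2c (chr2:164769779-164769958, plus strand), the gene with the largest difference from naive cells on the log2(FPKM + 1) scale, and Ttk (chr9:83834539-83834718, plus strand), which was lower in Th17 cells than in Th2 cells, hold CHR and CCAAT words and no E2F word.
Mcm6: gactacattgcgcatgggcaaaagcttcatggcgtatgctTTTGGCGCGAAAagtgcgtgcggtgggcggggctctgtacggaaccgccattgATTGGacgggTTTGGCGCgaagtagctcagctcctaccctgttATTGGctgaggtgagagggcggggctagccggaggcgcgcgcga
Rfc3: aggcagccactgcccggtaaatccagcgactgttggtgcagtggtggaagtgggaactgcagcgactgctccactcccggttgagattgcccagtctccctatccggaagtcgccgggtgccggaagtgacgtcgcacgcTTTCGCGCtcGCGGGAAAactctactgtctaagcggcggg
Cdk1: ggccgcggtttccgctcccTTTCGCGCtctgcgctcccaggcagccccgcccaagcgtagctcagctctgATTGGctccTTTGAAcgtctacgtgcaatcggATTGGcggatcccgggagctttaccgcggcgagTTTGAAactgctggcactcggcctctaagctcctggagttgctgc
Ube2c: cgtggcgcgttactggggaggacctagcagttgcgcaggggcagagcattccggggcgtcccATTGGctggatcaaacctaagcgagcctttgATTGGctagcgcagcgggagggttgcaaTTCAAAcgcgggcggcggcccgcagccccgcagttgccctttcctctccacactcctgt
Ttk: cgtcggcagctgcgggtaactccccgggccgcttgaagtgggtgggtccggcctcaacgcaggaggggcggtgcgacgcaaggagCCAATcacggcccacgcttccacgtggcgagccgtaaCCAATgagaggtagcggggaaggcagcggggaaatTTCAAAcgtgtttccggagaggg

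Levels are given as FPKM, fragments mapped to a gene corrected for transcript length and for the size of the library, which allows levels of different genes to be set side by side. Each pair of values below is replicate 1 followed by replicate 2. Differences are between group means of log2(FPKM + 1), given ± their standard error from a limma fit of all 8 libraries, with p adjusted over the 11198 genes tested, those with a mean of at least 1 FPKM. All 55 genes were tested, but 24 of them had a naive mean under 1 FPKM and were tested only because of their level in effector cells, so a count of genes higher than in naive cells is a description for them. The confidence limits in the deposited tables, read as counting error, correspond to 14463466 to 21058286 fragments per library. On that reading 24 of the 55 genes rested on fewer than 50 fragments in both naive libraries, and the lowest value was 4 fragments, so levels near 0 in naive cells are imprecise.

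The labels were checked against lineage markers. The summed FPKM of Tbx21 and Ifng was 665 to 847 in Th1 libraries and at most 3.85 elsewhere, and that of Gata3, Il4, Il5 and Il13 was 384 to 417 in Th2 libraries and at most 26.4 elsewhere. Il17a, the cytokine gene that marks Th17 cells, was at 347 and 335 FPKM in Th17 libraries and at most 0.711 elsewhere. The 5 T cell genes (Cd3d, Cd3e, Cd3g, Cd4, Lck) summed to 1094 to 2030 FPKM. Markers of other cells were detected. The 5 B cell markers summed to 2.32 to 3.13 FPKM in Th1, 6.93 to 9.72 in Th2, 11.1 to 12.1 in Th17 and 6.59 to 8.59 in naive libraries, and the 7 myeloid and dendritic cell markers to 8.31 to 8.55, 15.8 to 24.2, 18.4 to 18.6 and 10.8 to 11.7 in the same order. Both sums were lowest in Th1 cells. Of the 7 myeloid and dendritic cell markers, 2 (Cd14 and Xcr1) were higher and 4 lower in both Th1 libraries than in both Th2 libraries. The 4 neutrophil precursor genes (Mpo, Elane, Prtn3, Ctsg) reached 7.98 to 9.17 FPKM in the effector libraries of replicate 1 and 0.268 to 0.952 in those of replicate 2, against 0.0187 to 0.600 in naive cells. Cd8b1 was at 90.5 and 52.8 FPKM in naive and 8.77 to 12.9 in effector libraries. The other genes of the CD8 T and NK cell list were low. Cd8a was at 2.94 and 1.77 FPKM in naive and at most 0.268 in effector libraries, and Ncr1 at 0.139 and 0.209 FPKM in naive libraries. The part of such cells in the levels below was not tested.

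Each of the 55 genes was higher in all 6 effector libraries than in both naive libraries. The share of all genes tested for which this held was not counted. The median level of the list was 1.08 and 1.34 FPKM in naive, 35.1 and 39.0 in Th1, 29.3 and 27.9 in Th2, with 27.2 and 30.0 in Th17 libraries. Against naive cells, Th1 cells had 55 genes higher, Th2 cells 54 and Th17 cells 55, with 0 lower in each. Of all genes tested, Th1 cells had 33.8% higher and 33.5% lower, Th2 cells 31.8% and 38.7%, and Th17 cells 37.5% and 29.8%. The list had a median difference of 3.43 (Th1), 2.95 (Th2) and 3.25 (Th17), beside -0.01, -0.11 and 0.08 over all genes tested. These 3 comparisons share the naive libraries.

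**Figure D1:**
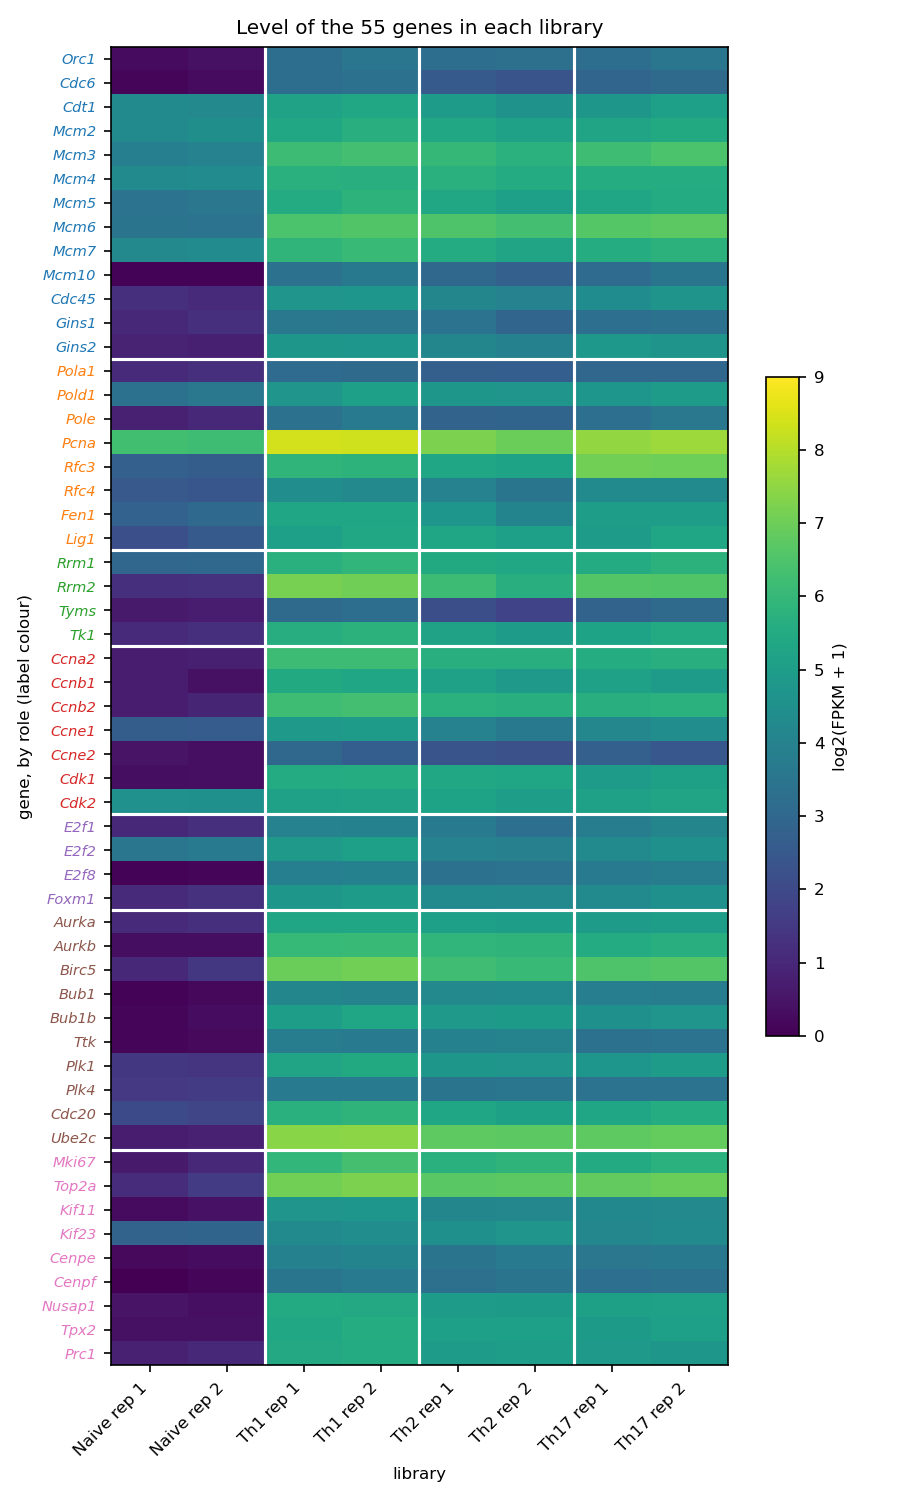
Level of the 55 genes (rows, grouped by role with label colours) in each of the 8 libraries (columns), as log2(FPKM + 1) on a colour scale from 0 to 9. Naive libraries are dark for cyclin and mitosis genes and lighter for Pcna, Cdk2 and several Mcm genes, while all 6 effector libraries are brighter than both naive libraries in each row.

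The roles differed in how much RNA naive cells already held. The median naive level was 9.79 FPKM for licensing and helicase genes and 0.351 FPKM for spindle, kinetochore and chromosome genes. Median differences from naive cells were 2.46 (Th1), 2.06 (Th2) and 2.40 (Th17) for licensing and helicase genes, 2.25, 1.49 and 1.95 for polymerase, clamp and ligation genes, and 3.67, 3.17 and 3.43 for nucleotide supply genes. They were 4.83, 4.43 and 4.46 for cyclins and their kinases, 3.25, 2.73 and 3.01 for transcription factors, 4.07, 4.02 and 3.77 for mitotic kinases, checkpoint and anaphase-promoting complex genes, and 4.55, 4.04 and 3.87 for spindle, kinetochore and chromosome genes. A pseudocount of 1 understates the change of genes that are low in naive cells. Within a library, the median log2(FPKM + 1) of the 25 S phase genes exceeded that of the 19 mitosis genes by 1.87 and 1.71 in naive cells, while Th1 had gaps of -0.13 and -0.07, Th2 of -0.01 and -0.20, and Th17 of 0.13 and 0.13.

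**Figure D2:**
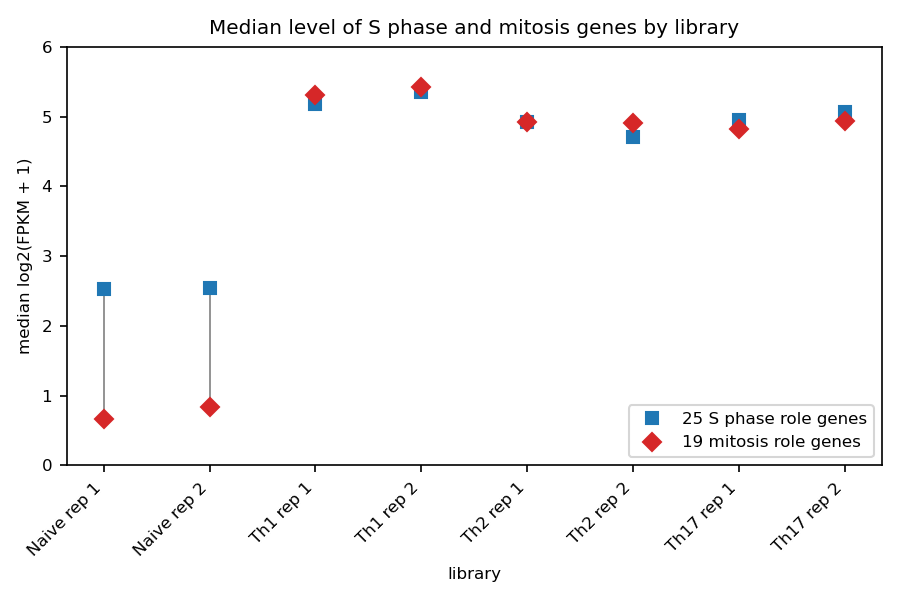
Median log2(FPKM + 1) of the 25 S phase genes (squares) and the 19 mitosis genes (diamonds) in each library, joined by a grey line. In naive libraries the S phase median is near 2.5 and the mitosis median under 1, whereas in effector libraries the medians lie within 0.20 of each other.

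Among the genes of origin licensing and of the replicative helicase, naive cells already held several subunits. Mcm2, a subunit of the MCM helicase, was at 18.96 and 21.6 FPKM in naive, 41.4 and 48.4 in Th1, 40.5 and 34.4 in Th2, with 36.9 and 42.7 in Th17 libraries. Its rise over naive cells was 1.11 ± 0.14 in Th1 (adjusted p = 0.00035), and the effector ranges of Th2 and Th17 overlapped. Mcm6, whose promoter is shown above, stood at 9.89 and 9.68 FPKM in naive cells and at 78.7 to 105 in the 6 effector libraries. It was the highest of the licensing and helicase genes in all 3 subsets and passed the threshold in no comparison between subsets, as did Orc1, Mcm2, Mcm4 and Gins1.

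A further 4 genes of this role, which act in loading or activating the helicase, were low in naive cells and higher in Th1 than in Th2 cells. Cdc6, which loads the helicase at origins, was at 0.121 and 0.213 FPKM in naive, 8.57 and 9.32 in Th1, 4.82 and 4.09 in Th2, with 6.66 and 7.70 in Th17 libraries. The 3 subsets did not overlap, and the difference was 0.87 ± 0.12 for Th1 over Th2 (adjusted p = 0.0013) and 0.59 ± 0.12 for Th17 over Th2 (adjusted p = 0.0077). Cdc45, a part of the active helicase, was at 1.40 and 1.14 FPKM in naive, 25.01 and 25.4 in Th1, 16.7 and 14.8 in Th2, with 20.0 and 24.1 in Th17 libraries. Gins2, a subunit of the GINS complex that joins it, was at 0.855 and 0.745 FPKM in naive, 25.9 and 25.4 in Th1, 16.4 and 14.7 in Th2, with 26.6 and 24.3 in Th17 libraries. Both were lowest in the Th2 libraries, with Gins2 exceeding Th2 by 0.69 ± 0.10 in Th1 (adjusted p = 0.0015) and by 0.68 ± 0.10 in Th17 (adjusted p = 0.0019). Most of the exon bases of Gins2 (67.3%) overlap exons of Gse1 on the opposite strand, and the sources differ on whether the library kit kept strand, so reads of the overlapping pair may be mixed. Mcm10, which helps to start the helicase, was at 0.0530 and 0.0667 FPKM in naive, 9.42 and 11.4 in Th1, 7.10 and 5.78 in Th2, with 7.89 and 10.4 in Th17 libraries, where Th1 and Th17 overlapped and Th1 exceeded Th2 by 0.62 ± 0.16 (adjusted p = 0.019).

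The polymerase, clamp and ligation genes held both the highest level of the list and its widest differences between subsets. Pcna, the sliding clamp, was at 76.6 and 72.3 FPKM in naive, 333 and 328 in Th1, 149 and 126 in Th2, with 183 and 206 in Th17 libraries. It was the highest of the 55 genes in naive cells and its 4 groups did not overlap. Th1 exceeded Th2 by 1.27 ± 0.12 (adjusted p = 0.00026) and Th17 by 0.77 ± 0.12 (adjusted p = 0.0041), and of the 25 S phase genes it was the 1 that passed as higher in Th1 than in Th17 cells. A processed copy, Pcna-ps2, shares 19.1% of the 50-base words of Pcna transcripts, so a part of its reads may have been split.

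Rfc3 was 1 of the 5 genes of the list with their highest mean in Th17 cells. The gene encodes a subunit of replication factor C, which loads the PCNA clamp, and was at 5.75 and 5.34 FPKM in naive, 57.9 and 55.8 in Th1, 38.1 and 36.7 in Th2, with 133 and 127 in Th17 libraries. Both Th17 libraries were above every other library, as they were for Mcm6 and for no other gene of the list. Th17 exceeded Th2 by 1.77 ± 0.09 (adjusted p = 2.3e-05) and Th1 fell short of Th17 by 1.18 (difference -1.18 ± 0.09, adjusted p = 0.00013). No other gene of the list passed as lower in Th1 than in Th17 cells. Rfc4, a subunit of the same loader, was at 18.4 and 18.8 FPKM in Th17 libraries, against 20.2 and 18.01 in Th1 and 14.7 and 10.4 in Th2, and its difference between Th1 and Th17 was 0.03 ± 0.16. In the reference annotation the exons of Rfc3 overlap no other gene by 10% or more, whereas 12.7% of the exon bases of Rfc4 overlap Eif4a2 on the opposite strand.

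Fen1, the nuclease that trims Okazaki fragments, was at 6.14 and 7.33 FPKM in naive, 39.1 and 38.2 in Th1, 25.2 and 15.6 in Th2, with 31.0 and 31.7 in Th17 libraries. Its 2 Th2 libraries lay far apart but both lay under the other effector libraries, with Th1 above Th2 by 0.93 ± 0.20 (adjusted p = 0.010), and 78.8% of its exon bases overlap Gm10143 on the opposite strand. Pole, the catalytic subunit of the leading-strand polymerase, was at 0.756 and 1.01 FPKM in naive, 9.32 and 12.0 in Th1, 6.28 and 6.49 in Th2, with 8.68 and 11.2 in Th17 libraries. Th1 and Th17 overlapped for it, and both exceeded Th2, by 0.65 ± 0.16 (adjusted p = 0.016) and 0.55 ± 0.16 (adjusted p = 0.029), the second of which was lost with both scalings (adjusted p up to 0.162 over the alternatives). Pold1, of the lagging-strand polymerase, and Lig1, the ligase that seals Okazaki fragments, passed in no comparison between subsets.

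All 4 nucleotide supply genes were higher in both Th1 libraries than in both Th2 libraries, as were 46 of the 55 genes in all. The share of all genes tested for which this held was not counted. Rrm2, the limiting subunit of ribonucleotide reductase, was at 1.37 and 1.42 FPKM in naive, 139.9 and 132 in Th1, 70.9 and 49.4 in Th2, with 96.3 and 94.1 in Th17 libraries. The subsets did not overlap, and Th1 exceeded Th2 by 1.18 ± 0.16 (adjusted p = 0.0014) and Th17 exceeded Th2 by 0.68 ± 0.16 (adjusted p = 0.015, and up to 0.0665 over the alternatives, among them median-of-ratios scaling). Tyms, thymidylate synthase, was at 0.552 and 0.611 FPKM in naive, 7.55 and 8.46 in Th1, 3.52 and 2.54 in Th2, with 6.37 and 7.55 in Th17 libraries, with Th2 lowest by 1.17 ± 0.15 against Th1 (adjusted p = 0.00092) and by 0.99 ± 0.15 against Th17 (adjusted p = 0.0023). Tk1, the thymidine kinase of the salvage pathway, was at 1.12 and 1.36 FPKM in naive, 47.5 and 53.6 in Th1, 35.8 and 29.7 in Th2, with 35.9 and 44.5 in Th17 libraries. Rrm1, the large subunit of the reductase, was at 6.80 and 7.20 FPKM in naive, 51.8 and 59.1 in Th1, 43.5 and 41.2 in Th2, with 45.7 and 53.5 in Th17 libraries. For Tk1 and Rrm1 the Th1 excess over Th2 was smaller, at 0.61 ± 0.15 (adjusted p = 0.014) and 0.38 ± 0.11 (adjusted p = 0.033), and neither passed between Th17 and another subset. The Rrm1 call was lost with both scalings (adjusted p up to 0.178 over the alternatives).

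Cyclins with their kinases order the cycle, E type cyclins at entry into S phase and B type cyclins at mitosis. Ccne1, cyclin E1, was at 5.23 and 5.08 FPKM in naive, 28.5 and 29.9 in Th1, 14.8 and 11.4 in Th2, with 17.0 and 20.1 in Th17 libraries. Its order of Th1, Th17 and Th2 was free of overlap and passed in all 3 comparisons, by 1.11 ± 0.14 for Th1 over Th2 (adjusted p = 0.00087), 0.63 ± 0.14 for Th1 over Th17 (adjusted p = 0.016) and 0.48 ± 0.14 for Th17 over Th2 (adjusted p = 0.028). The last of these was lost with both scalings and with a fit of the 2 groups alone (adjusted p up to 0.158 over the alternatives). Ccne2, cyclin E2, was at 0.386 and 0.290 FPKM in naive, 7.12 and 5.38 in Th1, 4.07 and 3.74 in Th2, with 5.84 and 4.47 in Th17 libraries, where Th1 and Th17 overlapped. Cdk2, the kinase partner of cyclin E, was at 22.7 and 21.98 FPKM in naive, 34.9 and 35.0 in Th1, 36.5 and 31.4 in Th2, with 34.8 and 37.2 in Th17 libraries. The smallest rises over naive cells in Th1 and Th17 were those of Cdk2 (0.62 ± 0.10 and 0.66 ± 0.10), and its effector groups overlapped.

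The A and B type cyclins were near 0 in naive cells. Ccna2, cyclin A2, was at 0.598 and 0.745 FPKM in naive, 71.7 and 70.2 in Th1, 48.5 and 49.97 in Th2, with 46.9 and 49.5 in Th17 libraries. Ccnb2, cyclin B2, was at 0.620 and 0.886 FPKM in naive, 72.2 and 78.5 in Th1, 52.5 and 50 in Th2, with 49.7 and 53.3 in Th17 libraries. For both, Th2 and Th17 overlapped and Th1 stood above them, by 0.52 ± 0.09 (Ccna2, adjusted p = 0.0034) and 0.55 ± 0.11 (Ccnb2, adjusted p = 0.0065) against Th2 and by 0.55 ± 0.09 (adjusted p = 0.0044) and 0.54 ± 0.11 (adjusted p = 0.011) against Th17. Ccnb1, cyclin B1, was at 0.661 and 0.332 FPKM in naive, 43.7 and 38.9 in Th1, 34.6 and 27.9 in Th2, with 34.4 and 29.4 in Th17 libraries, a Th1 excess over Th2 of 0.40 ± 0.16 that did not pass (adjusted p = 0.083). Cdk1, the kinase these cyclins activate, was at 0.246 and 0.297 FPKM in naive, 44.99 and 46.7 in Th1, 41.3 and 39.1 in Th2, with 30.1 and 33.5 in Th17 libraries. Here Th17 was lowest, by 0.33 (difference -0.33 ± 0.09, adjusted p = 0.025) against Th2, and Th1 exceeded Th17 by 0.52 ± 0.09 (adjusted p = 0.0069).

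The transcription factors of the list differed most for E2f2, an activating E2F. It was at 10.4 and 12.1 FPKM in naive, 27.6 and 33.2 in Th1, 15.0 and 14.1 in Th2, with 18.4 and 22.1 in Th17 libraries. E2f2 was the 1 gene of the list that did not pass as higher in Th2 than in naive cells (0.35 ± 0.14, adjusted p = 0.053), although it did with both scalings and with a pseudocount of 0.1. Th1 exceeded Th2 by 1.01 ± 0.14 (adjusted p = 0.0013). E2f1, another activating E2F, was at 1.04 and 1.40 FPKM in naive, 14.8 and 14.3 in Th1, 12.3 and 8.77 in Th2, with 12.7 and 16.0 in Th17 libraries, and Th1 and Th2 differed by 0.45 ± 0.18 without passing (adjusted p = 0.084). E2f8, a repressive member of the family, was at 0.0626 and 0.113 FPKM in naive, 13.6 and 14.7 in Th1, 9.55 and 9.68 in Th2, with 11.6 and 13.0 in Th17 libraries. Foxm1, which drives genes of G2 and mitosis, was at 1.08 and 1.45 FPKM in naive, 26.3 and 30.0 in Th1, 18.4 and 17.9 in Th2, with 18.8 and 21.6 in Th17 libraries. E2f8 was lowest in Th2, with Th17 over Th2 by 0.32 ± 0.09 (adjusted p = 0.030), whereas Foxm1 was above Th17 as well as Th2 in Th1 cells, by 0.46 ± 0.12 (adjusted p = 0.035) and 0.60 ± 0.12 (adjusted p = 0.0078). The E2f8 call between Th17 and Th2 was lost under 9 of 17 alternatives, both scalings included (adjusted p up to 0.275), and the Foxm1 call between Th1 and Th17 under 8 of 17 (adjusted p up to 0.183).

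Mitotic kinases, checkpoint genes and genes of the anaphase-promoting complex had naive means of 0.0955 to 2.85 FPKM. Ube2c, the ubiquitin-conjugating enzyme of that complex, was at 0.601 and 0.784 FPKM in naive, 169.5 and 173 in Th1, 107 and 105 in Th2, with 107 and 117 in Th17 libraries. Its differences from naive cells of 6.67 ± 0.10, 5.98 ± 0.10 and 6.06 ± 0.10 were the largest of the 55 on this scale in each subset. As a ratio of mean FPKM with no pseudocount, Aurkb led instead, at 251-fold (Th1), 222-fold (Th2) and 180-fold (Th17) against 247, 153 and 162 for Ube2c, ratios that rest on few fragments in naive cells. For Ube2c, Th1 exceeded Th2 by 0.68 ± 0.10 (adjusted p = 0.0015) and Th17 by 0.61 ± 0.10 (adjusted p = 0.0043). Opposite-strand exons of Tnnc2 cover 22.8% of its exon bases. Birc5, survivin, a part of the chromosomal passenger complex, was at 1.02 and 1.76 FPKM in naive, 125 and 136 in Th1, 75.1 and 67.3 in Th2, with 90.2 and 95.2 in Th17 libraries. Plk1, a kinase needed at several steps of mitosis, was at 1.75 and 1.65 FPKM in naive, 37.1 and 43.2 in Th1, 25.9 and 25.04 in Th2, with 25.7 and 29.8 in Th17 libraries. Th1 exceeded Th2 by 0.86 ± 0.15 for Birc5 (adjusted p = 0.0046) and by 0.63 ± 0.11 for Plk1 (adjusted p = 0.0042).

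Of the list, 8 genes were instead lower in both Th17 libraries than in both Th2 libraries, a count without its share over all genes tested. Ttk, Bub1, Aurkb, Kif23 and Cdk1 passed as lower, whereas Bub1b, Plk4 and Prc1 did not. Ttk, the checkpoint kinase MPS1, was at 0.104 and 0.158 FPKM in naive, 12.8 and 12.3 in Th1, 14.6 and 15.3 in Th2, with 9.29 and 9.81 in Th17 libraries. Th2 was the highest group for it, and Th17 lay below Th2 with a difference of -0.60 ± 0.08 (adjusted p = 0.0019). Bub1, a checkpoint kinase at the kinetochore, was at 0.0528 and 0.138 FPKM in naive, 16.7 and 15.4 in Th1, 17.7 and 18.6 in Th2, with 13.3 and 12.8 in Th17 libraries, a Th17 to Th2 difference of -0.44 ± 0.09 (adjusted p = 0.0083). Aurkb, the kinase of the passenger complex, was at 0.274 and 0.250 FPKM in naive, 63.5 and 67.8 in Th1, 59.9 and 56.7 in Th2, with 45.8 and 48.5 in Th17 libraries. Kif23, a motor protein of the central spindle, was at 6.34 and 6.47 FPKM in naive, 18.9 and 20.3 in Th1, 21.9 and 24.8 in Th2, with 17.2 and 18.5 in Th17 libraries. Their Th17 to Th2 differences were -0.30 ± 0.09 (adjusted p = 0.028) and -0.37 ± 0.10 (adjusted p = 0.021). Ttk, Bub1 and Kif23 were also the 3 genes of the list with a higher mean in Th2 than in Th1 cells, although none of them passed that comparison (-0.24, -0.17 and -0.24). With both scalings Ttk and Kif23 did pass as lower in Th1 than in Th2 cells.

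Of the spindle, kinetochore and chromosome genes, the standard markers of proliferation did not pass between subsets. Mki67, which encodes the Ki-67 antigen, was at 0.577 and 1.06 FPKM in naive, 61.5 and 80.5 in Th1, 51.2 and 56.4 in Th2, with 44.7 and 53.1 in Th17 libraries. Top2a, topoisomerase II alpha, was at 1.18 and 1.93 FPKM in naive, 135 and 149 in Th1, 103 and 106 in Th2, with 112 and 124 in Th17 libraries. For both genes the Th1 libraries were the highest, but Th1 exceeded Th2 by 0.38 ± 0.18 for Mki67 (adjusted p = 0.13) and by 0.43 ± 0.15 for Top2a (adjusted p = 0.052). Cenpf, a kinetochore protein, also passed in no comparison between subsets.

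Other spindle genes did pass. Prc1, which bundles microtubules of the central spindle, was at 0.777 and 1.05 FPKM in naive, 42.5 and 45.1 in Th1, 29.7 and 31.1 in Th2, with 27.2 and 26.3 in Th17 libraries. Kif11, the motor that separates spindle poles, was at 0.189 and 0.361 FPKM in naive, 24.6 and 25.7 in Th1, 16.5 and 17.0 in Th2, with 17.3 and 17.99 in Th17 libraries. Th1 stood above both other subsets, over Th17 by 0.69 ± 0.10 for Prc1 (adjusted p = 0.0028) and by 0.49 ± 0.10 for Kif11 (adjusted p = 0.011). The Prc1 call over Th17 held under all 17 alternatives, whereas that of Kif11 was lost under 5, a pseudocount of 0.1 among them. Nusap1, a protein that binds spindle microtubules, was at 0.396 and 0.306 FPKM in naive, 44.0 and 41.8 in Th1, 29.5 and 28.9 in Th2, with 33.3 and 34.6 in Th17 libraries. Tpx2, an activator of Aurora A, was at 0.320 and 0.310 FPKM in naive, 39.8 and 46.1 in Th1, 32.5 and 32.9 in Th2, with 29.2 and 32.6 in Th17 libraries. Nusap1 exceeded Th2 by 0.54 ± 0.08 in Th1 cells (adjusted p = 0.0024) and Tpx2 by 0.38 ± 0.10 (adjusted p = 0.024), a call that was lost with both scalings (adjusted p up to 0.146 over the alternatives).

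**Figure D3:**
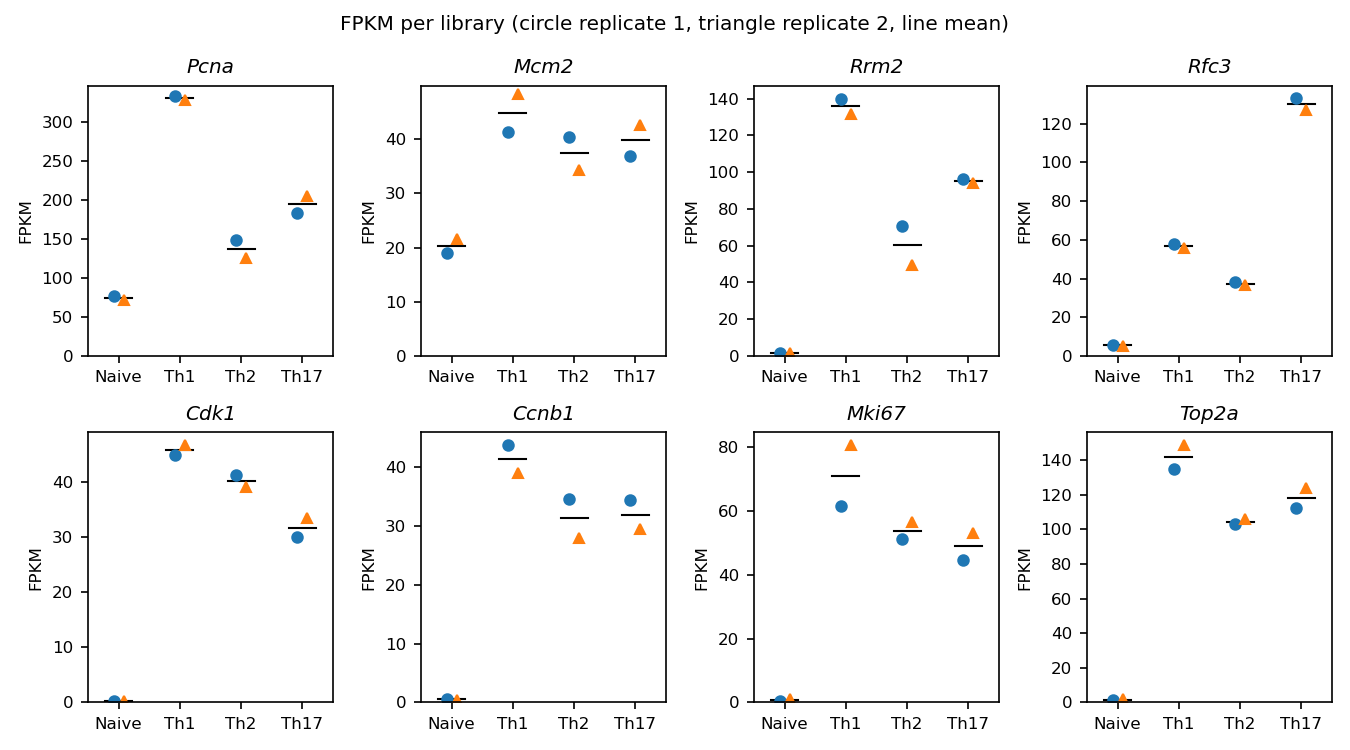
FPKM in each library for 4 S phase genes (top) and 4 genes of G2 and mitosis (bottom), with circles for replicate 1, triangles for replicate 2 and a line at the mean of each group. Pcna and Rrm2 are highest in Th1, Rfc3 in Th17, and Cdk1 is lowest among effectors in Th17, while the effector groups of Mcm2 lie close together.

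The design also sets the 3 effector subsets side by side, and the list was read as a whole between them. By mean FPKM, Th1 was the highest subset for 47 of the 55 genes (85.5%) and the lowest for 0, whereas Th1 was highest for 30.3% of all genes tested. Th2 was lowest for 40 genes (72.7%, against 52.1% of all genes tested) and Th17 for 15 (27.3%, against 16.4%). These ranks use FPKM as deposited and were not counted after scaling. In Th1 cells 35 genes were higher and 0 lower than in Th2 cells, where 27.4% of all genes tested were higher and 16.9% lower. The median difference was 0.50, beside 0.11 over all genes. Without Th1 replicate 2 the count was 21, and without Th2 replicate 2 it was 22. After median-of-ratios scaling, which removes the shift of all genes, 29 genes were higher and 2 (Ttk and Kif23) lower. Among all genes, 61.8% of calls were higher in Th1 as deposited and 50.3% after that scaling.

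Between Th17 and Th2 cells 15 genes were higher and 5 lower (Cdk1, Aurkb, Bub1, Ttk and Kif23), where 31.7% of all genes tested were higher and 12.0% lower. Neither count of the list lay above the share of all genes. The 15 comprised 12 S phase genes, Ccne1, E2f2 and E2f8, and 0 mitosis genes. The median difference was 0.30 for the 25 S phase genes and -0.07 for the 19 mitosis genes, beside 0.18 over all genes. With median-of-ratios scaling these medians were 0.09 and -0.26 and the counts 4 higher (Cdc6, Gins2, Rfc3 and Tyms) and 9 lower, and with quantile normalization they were 0.16 and -0.24 with 7 higher and 8 lower, so the side on which the list falls as a whole depends on the scaling. The share of calls that were higher in Th17 cells among all genes was 72.6% as deposited, 49.6% after scaling and 50.7% after quantile normalization. Without Th17 replicate 2 the count of higher genes was 3 and without Th2 replicate 2 it was 5. The count of lower genes was 2 without Th2 replicate 2, without Th17 replicate 1 or without Th17 replicate 2, and 3 without Th2 replicate 1. The difference between the S phase and the mitosis genes was not tested, since genes are not replicates.

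Th1 cells exceeded Th17 cells for 19 genes and fell short for Rfc3, where 9.17% of all genes tested were higher and 16.0% lower. The median difference was 0.28, beside -0.08 over all genes. Of the 19 mitosis genes 12 were higher in Th1, as were 1 of the 25 S phase genes (Pcna), 4 cyclin and kinase genes (Ccna2, Ccnb2, Ccne1 and Cdk1) and 2 transcription factors (E2f2 and Foxm1). Leaving out Th1 replicate 2 or Th17 replicate 1 left 4 genes higher, and leaving out Th1 replicate 1 or Th17 replicate 2 left 11. With scaling 25 were higher and 1 lower, and among all genes 36.5% of calls were higher as deposited and 49.2% after scaling. Each subset enters 2 of the 3 comparisons, so their counts are not independent.

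**Figure D4:**
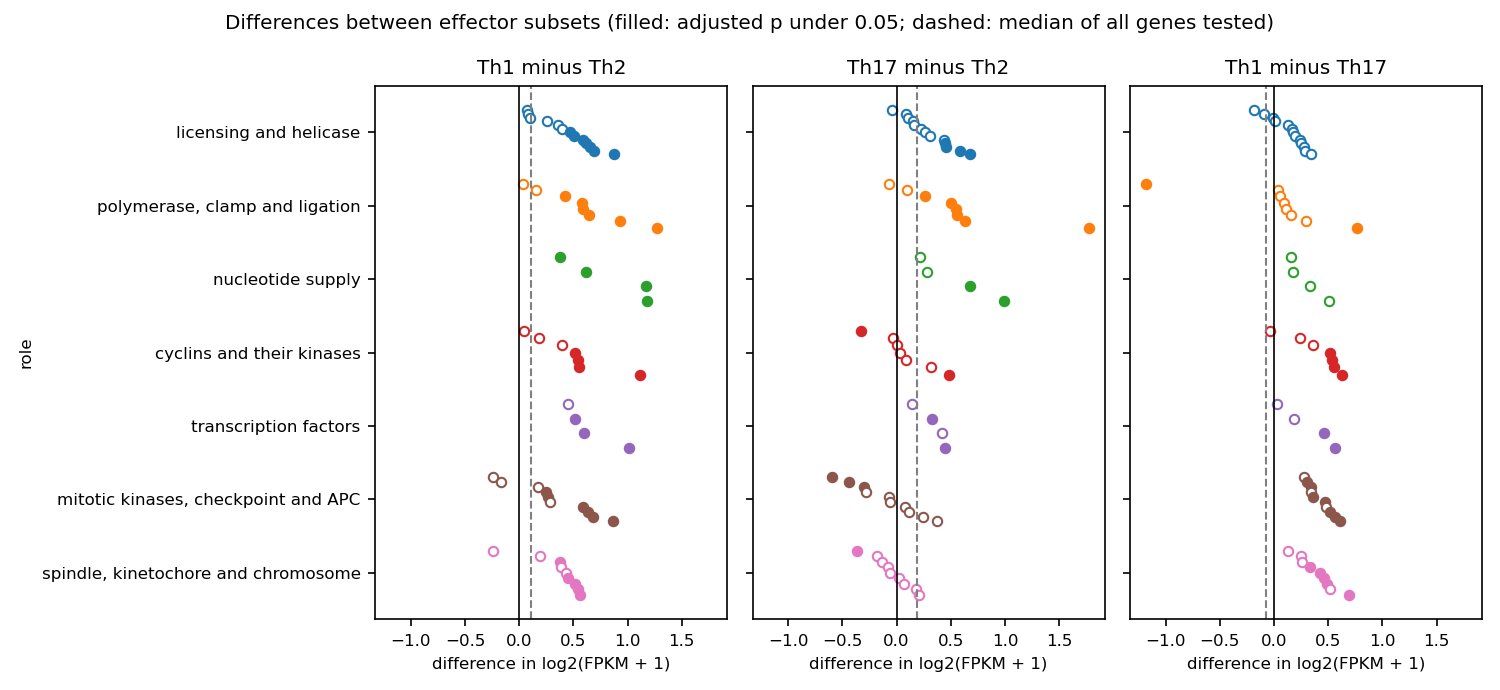
Difference in log2(FPKM + 1) between effector subsets for the 55 genes (points), by role, with filled points for an adjusted p under 0.05, a solid line at 0 and a dashed line at the median of all genes tested. Points of the first panel lie mostly right of both lines, in the second panel S phase genes lie right and mitosis genes around or left of 0, and in the third Rfc3 is the single filled point on the left.

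Of the 75 calls between subsets, 27 passed under each of the 17 alternative settings, 18 of 35 for Th1 against Th2, 4 of 20 for Th17 against Th2 and 5 of 20 for Th1 against Th17. For Th17 against Th2 these were Rfc3, Tyms, Gins2 and Ttk. For Th1 against Th17 they were Pcna, Ccna2, Prc1, Ube2c and Rfc3. In all, 42 genes passed in at least 1 comparison between subsets and 13 in none. The share of all genes tested that passed in at least 1 of them was not counted. The 13 were Orc1, Mcm2, Mcm4, Mcm6, Gins1, Pold1, Lig1, Ccnb1, Cdk2, E2f1, Mki67, Top2a and Cenpf. Opposite-strand exons of another gene cover 10% or more of the exon bases of 5 further genes, namely Ccne2 (17.4%, Ints8), Ccna2 (12.5%, Exosc9), E2f8 (11.2%, Gm2788), Prc1 (11.1%, Rccd1) and Orc1 (10.8%, Gm12743).

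Other genes of the same processes, from 3 further lists, were read beside the 55. Their counts stand beside shares over all genes tested of 33.8% higher and 33.5% lower in Th1 than in naive cells, 31.8% and 38.7% in Th2, and 37.5% and 29.8% in Th17. Of 40 other replication genes, 34 rose and 1 fell in Th1 against naive cells. Th2 cells had 28 higher and 2 lower, and Th17 cells 32 and 1. The largest rise in each was that of Uhrf1, which keeps DNA methylation through replication (4.51 ± 0.11, 4.0 ± 0.11 and 4.59 ± 0.11). Rpa1, the large subunit of the single-strand binding protein, was at 59.9 and 64.8 FPKM in naive, 64.1 and 71.8 in Th1, 31.0 and 27.6 in Th2, with 44.7 and 51.4 in Th17 libraries. It had the largest Th1 excess over Th2 of that list (1.19 ± 0.12, adjusted p = 0.00031) and was lower in Th2 than in naive cells. Between subsets 23 of the 40 were higher in Th1 than in Th2 and 0 lower, 14 higher and 2 lower in Th17 than in Th2, and 3 higher and 0 lower in Th1 than in Th17. Over all genes tested the shares were 27.4% higher and 16.9% lower, 31.7% and 12.0%, and 9.17% and 16.0% in the same order, so the list's 14 and 3 higher genes lay near the share of all genes.

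Of 50 other mitosis genes, 48 rose and 1 fell in Th1 against naive cells, while Th2 cells had 49 higher and 1 lower and Th17 cells 48 and 1. The 1 that fell in each was Smc4, a condensin subunit, with differences of -0.53 ± 0.15, -0.68 ± 0.15 and -0.91 ± 0.15. Between subsets 20 were higher and 2 lower in Th1 than in Th2, 5 higher and 9 lower in Th17 than in Th2, and 17 higher and 0 lower in Th1 than in Th17. The shares over all genes tested were 27.4% higher and 16.9% lower, 31.7% and 12.0%, and 9.17% and 16.0% in the same order. Anln, which encodes anillin of the contractile ring, was at 0.201 and 0.177 FPKM in naive, 7.38 and 7.63 in Th1, 12.7 and 15.6 in Th2, with 4.89 and 5.23 in Th17 libraries. It was lower in Th17 than in Th2 cells (-1.32 ± 0.11, adjusted p = 0.00026) and lower in Th1 than in Th2 cells (-0.83 ± 0.11, adjusted p = 0.0014).

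The third list held 20 genes, among them subunits of the RB and DREAM complexes and E2F factors. Wee1, Pkmyt1, Cdc25a and Fbxo5 on it are cell cycle regulators and not subunits, so its counts do not describe the complexes alone. Its median differences from naive cells were 0.53 (Th1), 0.72 (Th2) and 0.52 (Th17), beside -0.01, -0.11 and 0.08 over all genes tested. Against naive cells 13 rose and 2 fell in Th1, while Th2 cells had 13 higher and 4 lower and Th17 cells 12 and 1, with Mybl2, which encodes B-MYB, at the head of the list (2.82 ± 0.15, 2.54 ± 0.15 and 3.0 ± 0.15). Lin52, a core subunit of DREAM, fell in all 3 (-0.73 ± 0.11, -0.77 ± 0.11 and -0.72 ± 0.11). Between subsets 7 of the 20 were higher and 2 lower in Th1 than in Th2. In Th17 against Th2 the counts were 4 and 1, and in Th1 against Th17 also 4 and 1. All genes tested had shares of 27.4% higher and 16.9% lower, 31.7% and 12.0%, and 9.17% and 16.0% in the same order. E2f7 had the largest Th1 excess over Th2 (0.81 ± 0.09, adjusted p = 0.00062). Rbl2, the p130 pocket protein of DREAM, was lower in Th1 than in Th2 cells (-0.50 ± 0.11, adjusted p = 0.0089) and in Th17 than in Th2 cells (-0.36 ± 0.11, adjusted p = 0.032).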

How the data were processed

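RNA of 8 libraries was sequenced, 2 from each of 4 groups defined by the labels. Per the submitters' processing notes, reads were handled with Bowtie 0.12.8, TopHat 1.3.2 and Cufflinks 2.0.2. The authors deposited FPKM values per gene for each library, together with confidence limits and an estimation status; the gene annotation is not given in the sources used here. Read counts were not used, so library depth was inferred only from the confidence limits. FPKM values are relative to all mapped fragments of a library, not absolute amounts of RNA.

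Rows of one symbol were summed, giving 23284 symbols from 23746 rows. Genes with a mean of at least 1 FPKM over the 8 libraries were kept (11198), transformed as log2(FPKM + 1) and fitted with limma 3.58.1 in R 4.3.3, with 1 mean per group, a mean-variance trend, no block and all 8 libraries in 1 fit. Fold changes of low genes are understated on this scale. Two-sided p-values were adjusted within each of the 6 comparisons over all genes tested (Benjamini-Hochberg), with a threshold of 0.05. The fit was tested on simulated data. The 55 genes and the further and marker lists were chosen with earlier results of these data known. Values in each library are given for 8 standard genes, for up to 4 genes per role with the largest differences that passed between subsets, for the 3 highest genes in naive cells, and for a few others chosen after their values were seen (Bub1, Aurkb, Kif23, Mcm6, Rfc4, Rpa1 and Anln). Of the further lists, up to 3 genes per direction with the largest difference could be named. Alternatives were a pseudocount of 0.1, no filter, 2 scalings, a fit of 2 groups, no trend, a replicate block, 1 row per symbol, status OK only, and each library left out. Promoter windows and exon overlaps were read from RefSeq and GENCODE annotation on GRCm38 with Python 3.11.15. Labels and methods differ on whether the library kit kept strand. A gene of the marker lists is not reported here.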

Additional observations from a re-analysis of the deposited data

Results flagged for a closer look

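A difference between subsets is also a difference between their changes from naive cells, since the naive libraries are shared, and 42 of the 55 genes were singled out because such a difference passed the limma test. The share of all genes tested with such a difference was not counted. Each of the 42 genes is given once, by its largest difference in log2(FPKM + 1). For 29 genes it was that of Th1 against Th2, namely 1.27 for Pcna, 1.18 for Rrm2, 1.17 for Tyms, 1.11 for Ccne1, 1.01 for E2f2, 0.93 for Fen1, 0.87 for Cdc6, 0.86 for Birc5, 0.69 for Gins2, 0.68 for Ube2c, 0.65 for Cdc45 and Pole, 0.63 for Plk1, 0.62 for Mcm10, 0.61 for Tk1 and 0.60 for Foxm1. The rest of these were lower, at 0.59 for Cdc20 and Mcm7, 0.58 for Rfc4, 0.56 for Kif11, 0.55 for Ccne2 and Ccnb2, 0.54 for Nusap1, 0.51 for E2f8, 0.50 for Cdt1, 0.47 for Mcm5, 0.45 for Cenpe, 0.42 for Pola1 and 0.38 for Rrm1. For 5 genes it was that of Th17 against Th2, with 1.77 for Rfc3, 0.45 for Mcm3, -0.37 for Kif23, -0.44 for Bub1 and -0.60 for Ttk. For 8 genes it was that of Th1 against Th17, with 0.69 for Prc1, 0.56 for Bub1b, 0.55 for Ccna2, 0.52 for Cdk1, 0.47 for Aurkb, 0.46 for Tpx2, 0.34 for Aurka and 0.31 for Plk4. Groups of 2 libraries are too small to single out a library that stands apart.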

How the results depend on the processing

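The count of genes higher than in naive cells, a description for the 24 genes with a naive mean under 1 FPKM, was 55 in Th1 and in Th17 under every alternative and 53 to 55 in Th2. No difference of the 55 genes that passed changed direction under an alternative. The difference of Rfc4 between Th1 and Th17 cells, which did not pass, ranged from -0.05 to 0.11 when 1 library was left out, and was negative without Th1 replicate 1. Between Th1 and Th2 cells, the count of lower genes was 2 (Ttk and Kif23) rather than 0 with median-of-ratios scaling, quantile normalization and the replicate block, and leaving out 1 library gave 21 to 33 higher genes rather than 35. Between Th17 and Th2 cells, the 15 higher and 5 lower genes became 4 and 9 with median-of-ratios scaling, 7 and 8 with quantile normalization, and 8 and 2 when the 2 groups were fitted alone, and leaving out 1 library gave 3 to 15 higher and 2 to 5 lower. Between Th1 and Th17 cells, the 19 higher genes became 11 with a pseudocount of 0.1, and 4 to 20 when 1 library was left out. The cause of these shifts was not tested, except that a group fit or a left-out library holds fewer samples. Where leaving out a library left 1 in a group, it was assumed to vary like the others.

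The replicate block, which pairs libraries by their label number, gave 39 higher in Th1 than in Th2, 16 higher and 6 lower in Th17 than in Th2, and 24 higher and 1 lower in Th1 than in Th17 cells. Differences between replicates correlated across genes at 0.138 to 0.294 between groups. Across the genes of the list alone, the correlation was 0.778 for Th1 with Th17 and 0.496 for naive with Th1. It was 0.343 for naive with Th17, 0.232 for Th1 with Th2, 0.173 for naive with Th2 and -0.084 for Th2 with Th17. The labels do not say that a number marks a shared batch, so the numbers were not taken as pairs. Whether they mark one was not tested. The smallest difference that passed between subsets was 0.25 (Plk4, Th1 against Th2), and it passed under 2 of 17 alternatives. With 2 libraries per group, 27 of the 75 calls between subsets held under every alternative.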
